A study of Mus musculus with 6 samples.

Results

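Genes of the amino acid stress response under the transcription factor ATF4 were followed in mouse liver. Either both copies or 1 copy of the gene of the transcription factor SRF could be deleted by Cre. The set held 9 of the 18193 genes that the array annotation names alone on a probe set: Atf4, Atf5, Ddit3, Trib3, Asns, Chac1, Sesn2, Psat1 and Phgdh. Every probe set annotated with exactly 1 gene symbol, that of a member, was taken, which gave 19 probe sets. Another 2 probe sets list Phgdh together with a second gene and were left out. The arrays compared the livers of 3 mutant mice (Srf loxP/loxP AlfpCre) with those of 3 control mice (Srf loxP/+ AlfpCre), all male and 3 weeks old. The controls thus carried the same Cre transgene and 1 loxP-flanked copy of Srf beside a normal copy, against 2 loxP-flanked copies in the mutants. AlfpCre is driven by regulatory elements of the albumin and alpha-fetoprotein genes, so it acts in cells of the hepatoblast lineage and leaves Srf intact in the other cells of the liver. The design text says that the mutant tissue lacked Srf. The comparison asks how the liver's transcripts differ when both copies, rather than 1, can be deleted in the hepatoblast lineage.

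When amino acids run short or unfolded protein collects in the endoplasmic reticulum, kinases phosphorylate the translation factor eIF2 alpha. General protein synthesis then drops while the Atf4 messenger is translated more, so much of ATF4's activity is set after transcription and is not read by an array. ATF4 pairs with C/EBP proteins on a composite DNA element and switches on genes that make, import and spare amino acids, as well as genes that shut the response off again. In the liver this pathway answers to dietary amino acids, fasting and secretory load.

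The composite element has the core letters TGATGNAA, and it was searched on both strands of the promoters held in RefSeq (GRCm38.p6), in windows of 250 bases before to 50 bases after each start. It was present in 3 of 11 windows of the members, 1 each for Asns, Chac1 and Trib3, and in 3.97% of all 32851 windows. A match here is a run of letters, not a measured binding site. The upstream 250 bases of Asns and Chac1 are shown because both hold the letters but the genes differed in mutants 1 and 3. Asns lay above every control in those arrays and Chac1 below every control. In mutant 2 both genes lay below every control. Capitals mark the match, which reads TGATGAAA in Asns and, on the opposite strand, appears as TTGCATCA in Chac1.
Asns, chr6:7693210-7693459, minus strand: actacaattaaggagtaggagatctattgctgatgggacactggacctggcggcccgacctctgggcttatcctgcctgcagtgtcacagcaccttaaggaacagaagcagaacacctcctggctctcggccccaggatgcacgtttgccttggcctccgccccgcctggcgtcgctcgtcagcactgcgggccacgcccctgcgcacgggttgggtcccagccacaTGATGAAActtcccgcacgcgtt
Chac1, chr2:119350992-119351241, plus strand: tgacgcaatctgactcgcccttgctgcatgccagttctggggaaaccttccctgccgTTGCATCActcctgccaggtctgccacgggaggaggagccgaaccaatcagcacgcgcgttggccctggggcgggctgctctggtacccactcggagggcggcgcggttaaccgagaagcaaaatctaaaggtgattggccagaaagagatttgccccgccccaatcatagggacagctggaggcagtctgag
The match lay 23 to 16 bases before the annotated start in Asns and 193 to 186 bases before it in Chac1. That of Trib3 lay 15 to 22 bases after the start. No such letters were found in the windows of the other members, which says nothing of elements elsewhere in those genes.

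Each value is a probe set's brightness on a linear scale after the arrays had been brought to a common trimmed mean, called scaled signal here. The tissue checked as liver, with the summed scaled signal of 7 measured hepatocyte markers at 53400 to 70253 in mutants and 43227 to 49808 in controls. Markers of other cells differed among the mutant arrays. The 6 stellate cell markers summed to 776, 2550.3 and 1383 in mutants 1 to 3 and to between 2407 and 2759 in controls. They did not share a direction. Col1a1 and Col3a1 lay below every control in each mutant, Col3a1 at 11.8, 391 and 83.3 beside 826 to 875 in controls. The groups of Lrat, Des, Reln and Dcn overlapped, and Dcn gave 1432 in mutant 2 beside 969 to 1086 in controls. The 5 sinusoidal endothelial markers summed to 269, 1179 and 577 in mutants 1 to 3 and to between 581 and 865 in controls. The 6 macrophage markers summed to between 755 and 1122 in mutants and 980.2 and 1452 in controls. In mutant 1 they went both ways, with Clec4f at 30.9 beside 217 to 379 in controls and Marco at 189 beside 47.8 to 58.0. The 4 measured bile duct markers summed to between 39.2 and 62.6 in mutants and 33.9 and 36.7 in controls. None of these markers had both group means below the level of receptor genes taken as not expressed in liver. The 5 measured neutrophil and lymphocyte markers summed to 527, 265 and 120 in mutants 1 to 3 and to between 172 and 313 in controls, with Cd3e below that level. The 5 measured pancreatic acinar markers summed to between 141 and 233 in mutants and 301 and 516 in controls, but they did not share a direction. Cela1 gave 46.5, 163 and 101 in mutants 1 to 3 and 491, 356 and 259 in controls 1 to 3. Cela2a went the other way, with 78.4, 48.5 and 101 in mutants and 15.8, 21.5 and 18.8 in controls. Prss2 had overlapping groups, and Cpa1 and Ctrb1 were below the level of the receptor genes. Of the erythroid markers Hba-a1 was below it, and with Alas2 it summed to 7.19, 309 and 33.3 in mutants 1 to 3 and to between 223 and 410 in controls. The part of these cells in the results was not tested. The ratio of 3' to 5' control probe sets grows as RNA degrades. For Pcx it was 17.3, 6.39 and 10.5 in mutants 1 to 3 and 4.94, 4.44 and 7.03 in controls 1 to 3 (exact permutation p = 0.2, two-sided). For Gapdh it was 1.01, 0.773 and 0.866 in mutants and 0.711, 0.679 and 0.756 in controls, with separated groups (exact permutation p = 0.1). With 3 arrays a group 0.1 is the smallest p this test can give. The Actb ratio had an exact permutation p of 0.2. Srf itself (1418256_at) gave 18.1, 37.8 and 5.82 in mutants 1 to 3 and 39.7, 35.4 and 34.5 in controls 1 to 3, and the array labelled mutant 2 lay at the level of the controls there. On its dimmer probe set (1418255_s_at), which gave 9.81, 0.875 and 3.98 in mutants 1 to 3 and 8.01, 12.9 and 10.3 in controls 1 to 3, mutant 2 was the lowest of all arrays and mutant 1 lay within the control range. Neither passed (adjusted p = 0.398 and 0.411, limma), and whether either lies inside the deleted stretch of Srf is not known from the labels, so these values do not settle which arrays lack it.

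No member passed the test, which in simulated data recovered 0% of the probe sets given a log2 change of 1. Of the 19 probe sets 17 were bright enough to be kept, covering all 9 genes, and 0 of the 17 had an adjusted p under 0.05 by limma, where 0.074% of all kept probe sets did. The members' adjusted p-values ran from 0.309 to 0.972. At an unadjusted p under 0.05 stood 2 member probe sets with a higher mean in mutants and 2 with a lower one, where 7.6% and 6.18% of all kept probe sets did so. The groups did not overlap for 2 member probe sets higher in mutants and 2 lower, against a background of 13.8% and 9.36%, so these counts were near those of the array as a whole. With each gene taken at its brightest kept probe set, 5 log2 fold changes of mutants over controls were positive and 4 negative. Their median was 0.03, and that of all 13144 kept genes was 0.06. With the sign dropped, the medians were 0.73 for the 9 genes and 0.43 for all kept genes. In whole liver, fewer cells of a type and less RNA per cell cannot be told apart.

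**Figure D1:**
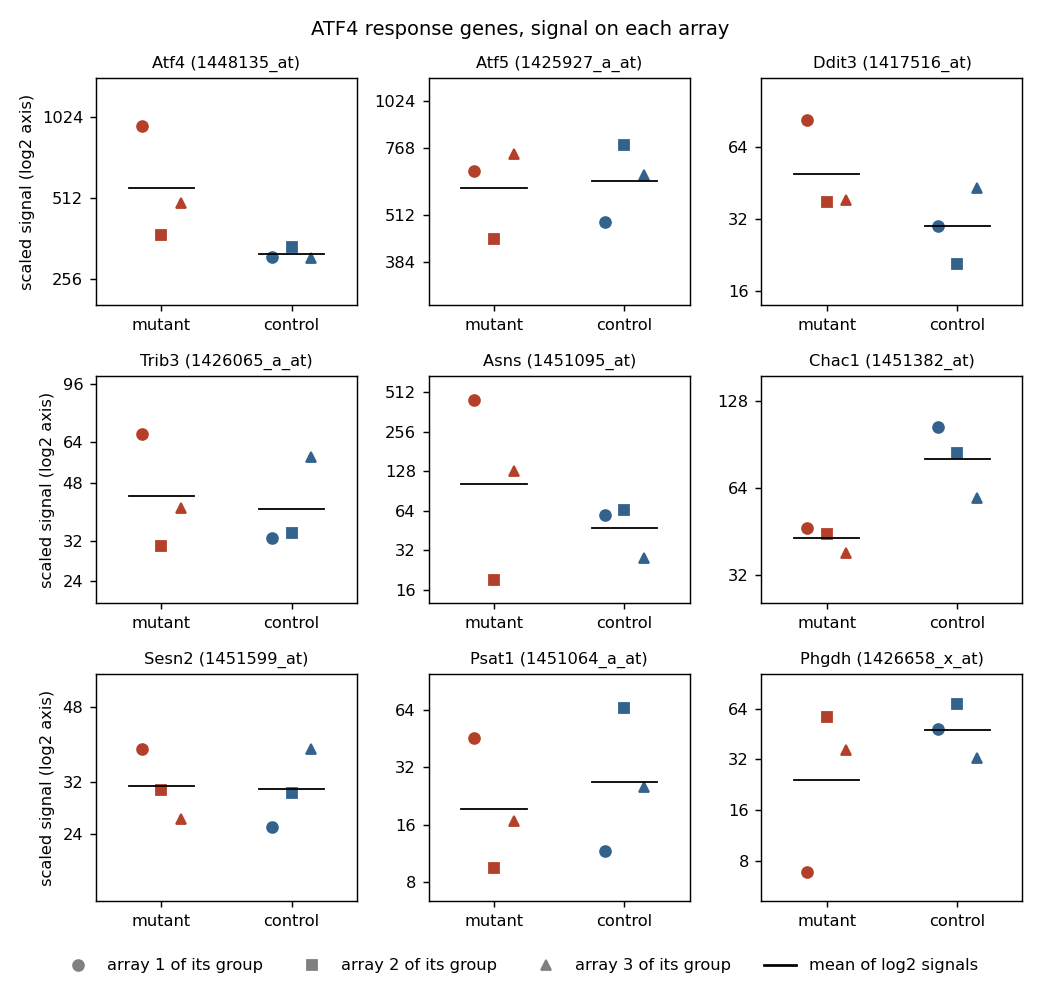
Scaled signal of the brightest kept probe set of each of the 9 genes on a log2 axis, with mutants (red) left of controls (blue), 1 point per array and a bar at the mean of the log2 signals. Atf4 lies above all controls on the 3 mutant arrays and Chac1 below them, while Asns spans 19.0 to 449 in mutants and 28.1 to 65.0 in controls.

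Atf4 is the transcription factor at the head of the response. Its brighter probe set (1448135_at) gave scaled signals of 953, 374 and 489 in mutants 1 to 3 and 309, 335 and 305 in controls 1 to 3. All 3 mutants lay above all 3 controls, mutant 1 by far the most. The log2 fold change was 0.82 (SE 0.34, 95% interval 0.03 to 1.61), 1.77-fold, and did not pass (adjusted p = 0.359, limma). The probe set 1438992_x_at, which can also detect related transcripts, gave 505, 115 and 154 in mutants and 80.0, 70.9 and 101 in controls (log2 fold change 1.32, adjusted p = 0.344, limma). On both probe sets the order of the mutants was the same, with mutant 1 highest and mutant 2 nearest to the controls. On the scaling as deposited, 1448135_at gave 658, 403 and 385 in mutants and 317, 434 and 344 in controls, and the groups overlapped, while those of 1438992_x_at did not. The last probe set of Atf4 (1439258_at) lay between 0.419 and 2.60 on the 6 arrays, below the level of receptor genes taken as not expressed in liver, and was not tested.

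Atf5 is a relative of Atf4 whose messenger is likewise translated more under stress, and it is abundant in liver. It gave 669, 442 and 743 in mutants 1 to 3 and 490, 783 and 651 in controls 1 to 3. The groups overlapped, with mutant 2 the lowest of all arrays (log2 fold change -0.06, 95% interval -0.72 to 0.59, adjusted p = 0.930, limma). In folds the interval ran from 0.608 to 1.51, so a difference within that range is not excluded for this probe set.

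Ddit3 encodes CHOP, a partner of C/EBP proteins that drives cell death programmes when stress persists. Its brighter probe set (1417516_at) gave 83.0, 37.8 and 38.6 in mutants and 29.8, 20.8 and 43.3 in controls. Mutant 1 was the highest array, and mutants 2 and 3 lay within the control range (log2 fold change 0.73, SE 0.42, adjusted p = 0.433, limma). The dim probe set 1443897_at gave 8.43, 3.60 and 1.80 in mutants and 0.975, 0.651 and 1.60 in controls. These means lie below the level of the receptor genes in both groups, so no fold is given.

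Asns, which makes asparagine from aspartate and glutamine, varied more among the mutants than any other member did at its brightest kept probe set. It (1451095_at) gave 449, 19.0 and 129 in mutants 1 to 3 and 59.5, 65.0 and 28.1 in controls 1 to 3. Mutants 1 and 3 lay above every control and mutant 2 below every control. The probe set 1433966_x_at placed each mutant on the same side of the controls, with 514, 24.0 and 105 in mutants and 35.1, 53.9 and 41.6 in controls. The log2 fold changes were 1.11 (SE 1.003) and 1.35 (SE 0.94), with adjusted p-values of 0.591 and 0.497 (limma). On the log2 scale the SD of 1451095_at was 2.30 in mutants and 0.66 in controls (n = 3 each).

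Phgdh and Psat1 catalyse the first steps that turn a glycolytic intermediate into serine. The 4 kept probe sets of Phgdh, each of a kind that can detect related transcripts, all had a lower mean in mutants, but they did not agree on which arrays were low. The brightest (1426658_x_at) gave 6.88, 57.6 and 36.2 in mutants 1 to 3 and 48.6, 68.4 and 32.7 in controls 1 to 3, with mutant 1 alone below the controls (log2 fold change -0.97, adjusted p = 0.527, limma). On 1454714_x_at all 3 mutants lay below all 3 controls, at 12.6, 10.4 and 11.8 in mutants and 17.4, 28.3 and 26.2 in controls. Its log2 fold change was -1.02 (95% interval -1.81 to -0.23, adjusted p = 0.319, limma). On 1437621_x_at and 1456584_x_at the lowest array was mutant 2, at 0.987 and 1.39. The mutant means of both lie below the level of the receptor genes, so no fold is given for them (adjusted p = 0.523 and 0.467, limma).

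Psat1 (1451064_a_at) gave 45.3, 9.50 and 16.7 in mutants and 11.6, 65.4 and 25.3 in controls. Both groups spread widely and overlapped, with a control SD of 1.25 on the log2 scale (n = 3). The log2 fold change was -0.47 (95% interval -2.19 to 1.24, adjusted p = 0.765, limma). The probe set 1454607_s_at gave 41.8, 0.381 and 10.9 in mutants and 16.4, 41.6 and 16.6 in controls (adjusted p = 0.537, limma). Mutant 2 was under the floor of 1 set before the logarithm and the mutant mean lies below the level of the receptor genes, so no fold is given. Mutant 2 was the lowest array on both probe sets of Psat1 and of Asns.

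Chac1 breaks down glutathione and is induced by ATF4 and CHOP. It had the smallest adjusted p of the members and was the only gene of the 9 below every control in each mutant at its brightest kept probe set. Its single probe set (1451382_at) gave 46.6, 44.2 and 38.2 in mutants 1 to 3 and 104, 84.6 and 59.2 in controls 1 to 3. The spread was smaller among mutants than among controls, with an SD on the log2 scale of 0.15 in mutants and 0.41 in controls (n = 3 each). The log2 fold change was -0.91 (SE 0.29, 95% interval -1.58 to -0.24), 1.88-fold lower in mutants, and did not pass (adjusted p = 0.309, limma). Of all kept probe sets 4.54% had a smaller p. The groups were also separated on the scaling as deposited, with 32.2, 47.6 and 30.1 in mutants and 106, 110 and 66.7 in controls.

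Trib3 is a pseudokinase that ATF4 and CHOP induce and that restrains them. It (1426065_a_at) gave 67.7, 30.8 and 40.1 in mutants and 32.6, 33.8 and 57.4 in controls. The groups overlapped, with mutant 1 highest and mutant 2 lowest (log2 fold change 0.13, 95% interval -0.75 to 1.02, adjusted p = 0.879, limma). The sign was negative on the scaling as deposited and with arrays centred on their median, at -0.32 and -0.10. The probe set 1456225_x_at gave 65.0, 30.3 and 50.3 in mutants and 18.3, 25.2 and 64.0 in controls, again with overlapping groups (adjusted p = 0.580, limma). The deposited scaling put the median of all kept probe sets at -0.37, and relative to that median Trib3 had 0.06.

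Sesn2 encodes a leucine sensor that holds back the growth kinase mTORC1. Its probe set 1451599_at gave 38.1, 30.6 and 26.2 in mutants and 25.02, 30.1 and 38.2 in controls. These ranges were nearly the same (log2 fold change 0.03, 95% interval -0.67 to 0.73, adjusted p = 0.972, limma), and here too the sign was negative on those 2 other scalings, at -0.42 and -0.20. On 1425139_at mutant 1 was the lowest array at 8.20 and the other mutants gave 23.1 and 27.8, with 24.9, 14.9 and 18.9 in controls.

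**Figure D2:**
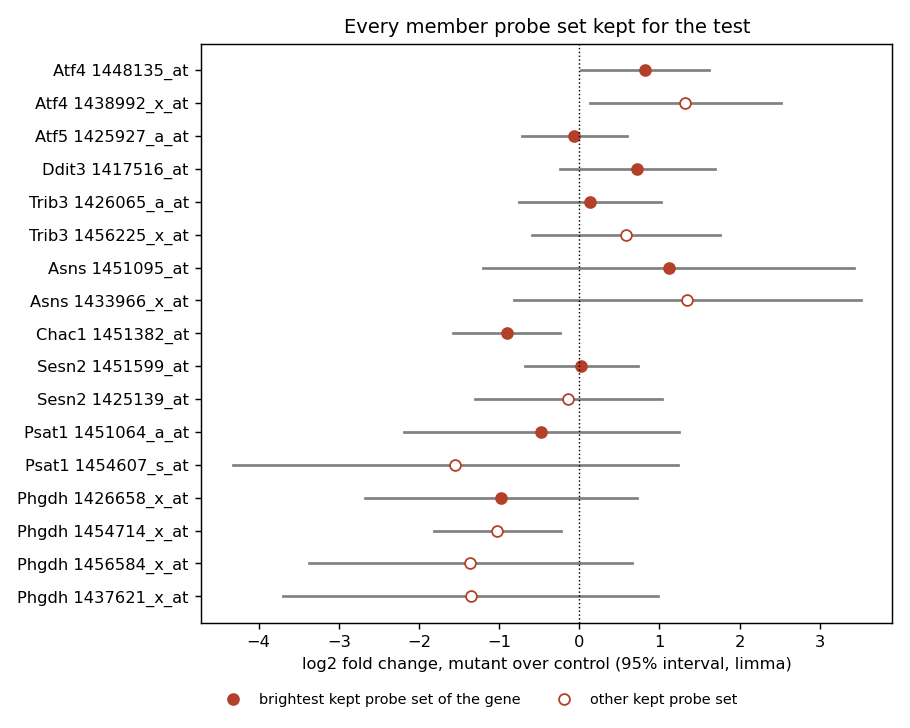
Log2 fold change of mutants over controls with its 95% interval for the 17 member probe sets kept for the test, filled where the probe set is the brightest of its gene. The intervals of both Atf4 probe sets lie above 0 and those of Chac1 and of Phgdh 1454714_x_at below 0 before adjustment, and none of the 17 passed after it. The points of Phgdh 1456584_x_at and 1437621_x_at and of Psat1 1454607_s_at rest on mutant means below the level of the receptor genes, so their sizes are not exact.

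The mutant arrays differed in which members stood apart from the controls. Mutant 1 lay above every control for 4 of the 9 genes and below every control for 2, where 40.9% and 38.4% of all kept genes did so. Mutant 2 lay above every control for 1 gene, Atf4, and below every control for 5, where 33.1% and 26.9% of all kept genes did so. Mutant 3 lay above every control for 2 genes, Atf4 and Asns, and below every control for 1, Chac1, against 42.1% and 29% of all kept genes. The 9 genes therefore did not stand on 1 side of the controls in any mutant.

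Several members, like many other kept genes, were extreme on the array with the poorest RNA quality values. The index of the 3' to 5' ratios, a mean over Actb, Gapdh and Pcx on the log2 scale, was 2.18, 1.18 and 1.57 in mutants 1 to 3 and 0.91, 0.78 and 1.22 in controls 1 to 3. Mutant 1, with the highest index, was also the highest array for Atf4, Ddit3, Trib3 and Asns and the lowest for Phgdh at their brightest kept probe sets. Its median log2 distance from the control mean, in either direction, was 0.79 for the 9 genes and 0.76 for all kept genes. Without regard to direction, the members thus stood about as far from the controls there as other genes did. With the sign kept, the members' medians were 0.76, -0.37 and 0.01 in mutants 1 to 3. Those of all kept genes were 0.07, 0.07 and 0.14. With this RNA degradation index as a covariate the log2 fold change of Atf4 was 0.08 (SE 0.31) and that of Asns -1.06 (SE 0.99). The signs of Ddit3, Trib3, Sesn2 and Phgdh also turned, to -0.21, -0.72, -0.29 and 1.06, and none of the 9 passed (adjusted p from 0.929 to 0.981, limma). Chac1 had -0.81 (SE 0.40) with the covariate and -0.97 without mutant 1. Without mutant 1 Atf4 had 0.44, Asns 0.05 and Phgdh -0.06.

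**Figure D3:**
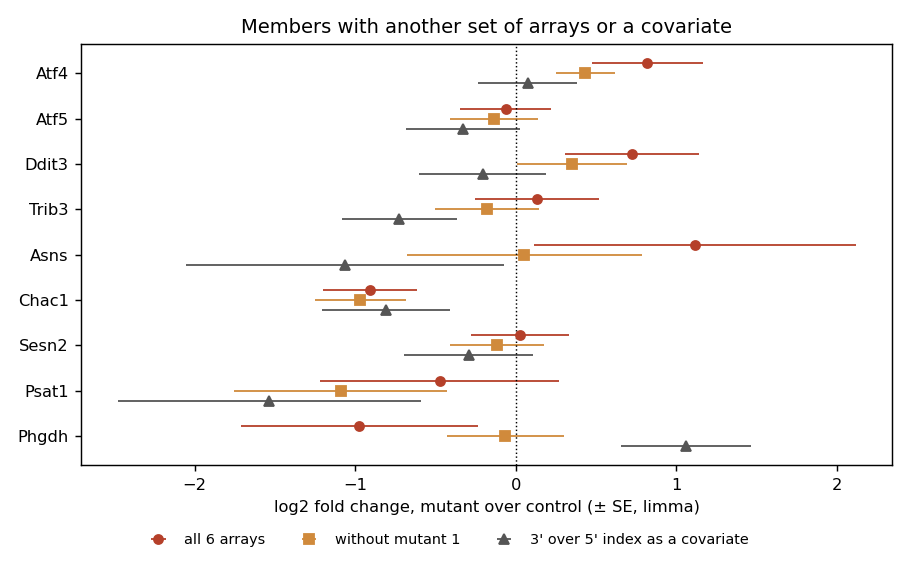
Log2 fold change of mutants over controls (± SE) for the 9 genes with all 6 arrays, without mutant 1, and with the RNA degradation index added to the model. Chac1 stays between -0.97 and -0.81, while Asns runs from -1.06 to 1.11 and Phgdh from -0.97 to 1.06.

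The genes most like Chac1, the member with the smallest p, were found by the root mean square difference of log2 signals centred on each gene's own mean over the 6 arrays. The nearest was Rangap1 (1451092_a_at), which activates the GTPase of nuclear transport, at a difference of 0.066, where the median of all genes was 0.74. It gave 54.1, 53.0 and 46.4 in mutants 1 to 3 and 116, 110 and 72.8 in controls 1 to 3. Rab23, Nup210, Krt8 and Nipsnap3b followed, at differences between 0.098 and 0.174. All 5 had groups that did not overlap and none passed the test (adjusted p between 0.241 and 0.330, limma). Both hold for Chac1 too, and the 5 were picked for their likeness to it on these same arrays. Neither is therefore a separate result.

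Other genes of the pathway were taken from 6 lists. Of their 68 genes 63 were kept, and 0 passed in either direction, where 0.114% of all kept genes did. Unadjusted p-values under 0.05 stood at 7 genes with a higher mean in mutants and 4 with a lower one, against 7.36% and 7.01% of all kept genes. The list of other stress targets and feedback genes had 10 positive values among 12 and a median log2 fold change of 0.57, beside 0.06 over all genes. Its medians were 1.21, 0.26 and 0.34 above the control mean in mutants 1 to 3, so mutant 1 was again the highest.

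In that list Ddit4, which encodes an inhibitor of mTORC1, gave 826, 448 and 651 in mutants 1 to 3 and 108, 216 and 106 in controls 1 to 3. All mutants lay well above all controls, with a log2 fold change of 2.20 (SE 0.36, 95% interval 1.38 to 3.03), 4.60-fold, at an adjusted p of 0.0901 (limma). It passed without mutant 2, at 2.44 (adjusted p = 0.0301, limma), and after log2(signal + 32), at 1.96 (adjusted p = 0.0495, limma). It did not pass under the other settings, with adjusted p-values up to 0.695 (limma), the last with the RNA degradation index as a covariate. Glucocorticoids and low oxygen also induce Ddit4, so it is not specific to ATF4. What lay behind its values here was not tested. The stress factor Atf3 gave 71.6, 13.1 and 26.7 in mutants and 9.63, 5.66 and 6.12 in controls (adjusted p = 0.296, limma), and its control mean lies below the level of the receptor genes, so no fold is given. Ppp1r15a, which encodes the eIF2 alpha phosphatase subunit GADD34, had 1.27 and Cebpg, a dimer partner of ATF4, had 0.82 (adjusted p = 0.335 and 0.319, limma). The groups were separated for these 4 genes, which was a condition for naming them, and for no other of the 12. Over all kept probe sets 13.8% had separated groups with mutants higher. With the RNA degradation index as a covariate their log2 fold changes were 1.94 for Ddit4, 0.75 for Ppp1r15a and 0.30 for Cebpg, and none of the 4 passed (adjusted p = 0.695 for Ddit4 and 0.929 for the others, limma).

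The biosynthetic and transport lists had medians nearer to 0. The 13 tRNA synthetases and tRNA export genes had a median of -0.07, with 4 positive and 9 negative values. Cars, cysteinyl-tRNA synthetase, gave 69.0, 67.3 and 69.8 in mutants and 110, 160 and 133 in controls (log2 fold change -0.95, adjusted p = 0.258, limma), but as the mean over its probe sets it had -0.31 (adjusted p = 0.729, limma). The export factor Xpot had -0.28. Its groups and those of Cars were separated, and those of no other gene of the 13. Over all kept probe sets 9.36% had separated groups with mutants lower. Over 11 kept genes of serine, glycine, one-carbon and proline synthesis the median was -0.13. Psph, which completes serine synthesis after Phgdh and Psat1, gave 32.8, 45.1 and 38.0 in mutants and 51.4, 86.8 and 70.2 in controls (-0.83, adjusted p = 0.332, limma). Shmt2 had -1.05 and the mitochondrial folate enzyme Mthfd1l 1.42 (adjusted p = 0.375 and 0.285, limma). Shmt2 was lowest on mutant 1, at 170 beside 716 and 510 in mutants 2 and 3 and 778, 858 and 819 in controls, and it had -0.44 without that array and 0.16 with the RNA degradation index as a covariate. The 7 kept amino acid transporters had a median of 0.42, with 4 positive and 3 negative values, and their medians relative to the control mean were 1.003, -0.06 and 0.08 in mutants 1 to 3, so mutant 1 alone stood high. The cationic transporter Slc7a1 had 1.29 (adjusted p = 0.388, limma), but 0.54 without control 3, and Slc7a11 and Slc7a5 were too dim to be kept.

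Among 8 kept eIF2 alpha kinases and regulators the median was 0.12. Impact, which in mouse cells blocks activation of the kinase GCN2, gave 129, 37.6 and 41.1 in mutants and 26.0, 23.4 and 17.5 in controls (1.41, adjusted p = 0.326, limma). It had 0.48 with the RNA degradation index as a covariate and 0.84 without mutant 1. The 12 targets of ATF6 and XBP1, the other branches of the endoplasmic reticulum stress response, had a median of -0.33, with 3 positive and 9 negative values. Sdf2l1 had -1.41, Pdia4 -1.08 and Calr -0.37, and Atf6 itself had 0.73 (adjusted p = 0.231, 0.336, 0.413 and 0.292, limma). Each had separated groups, which was a condition for naming it. Of the 12 genes 4 had separated groups with mutants lower and 1 with mutants higher, against 9.36% and 13.8% of all kept probe sets. Pdia4 had -0.20 with the covariate, and as the mean over probe sets Pdia4 had -0.58 and Atf6 0.27.

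**Figure D4:**
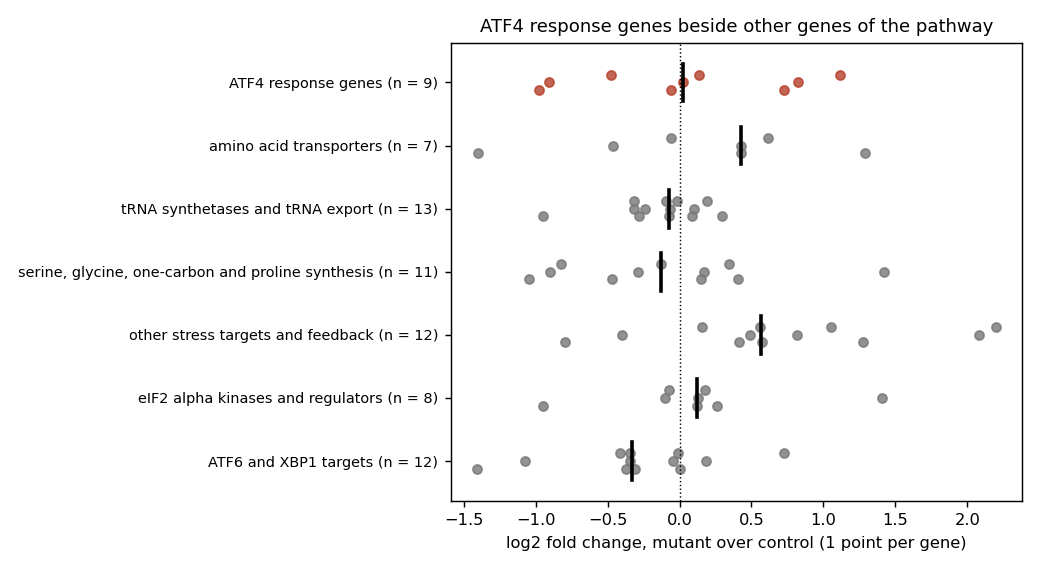
Log2 fold change of mutants over controls, 1 point per gene at its brightest kept probe set, for the 9 ATF4 response genes (red) and 6 other lists (grey), with a bar at each median. The medians run from -0.33 for ATF6 and XBP1 targets to 0.57 for other stress targets and feedback genes, and the 9 genes spread on both sides of 0.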

How the data were processed

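Total RNA of 6 livers was labelled with biotin for single-channel Affymetrix arrays, per the labels' protocols, and samples were grouped by title. The deposited table holds 1 linear intensity per probe set and array, made with GCOS per the submitters' processing notes; the sources used here do not name its algorithm, version or scaling.

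Of 45101 probe sets, 64 were array controls. Of the rest, 34945 had 1 symbol in the platform annotation, 932 several and 9160 were not listed there. Each array was multiplied so that its mean, trimmed of 2% at each end, equalled the mean over arrays. Signals were raised to at least 1 before log2, and the dimmest 40% of probe sets by mean log2 were dropped, leaving 27022. As the arrays' means are set equal, a shift common to most transcripts is lost. Mutants were compared with controls by limma 3.58.1 in R 4.3.3 (lmFit, eBayes with trend, two-sided, Benjamini-Hochberg over all kept probe sets, threshold 0.05). A gene was represented by its brightest kept probe set. The level of genes not expressed in liver was the 95th percentile of 81 olfactory, vomeronasal and taste receptor probe sets, 3.06 in mutants and 2.88 in controls on the log2 scale. The 3 arrays per group limit the precision. The procedure was also run on simulated arrays. Of 68 probe sets given a log2 change of 1, 0% were recovered. Of 65 given a change of 2 it recovered 23.1%, and of 58 given a change of 4 69.0%, with 0 false calls. That no member passed therefore does not exclude a log2 change of 1. The simulated noise was independent, with the same spread in both groups, and only probe sets brighter than the median were changed. The recovered shares and the false calls need not hold for dim probe sets or where mutants spread more than controls.

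The members, lists and settings were chosen with earlier results of these data known. Named were all members, Srf, up to 4 genes with the smallest p in each of the 6 other lists, as far as their groups were separated, and the 5 genes most like the member with the smallest p. Dim genes named as not kept fall outside that rule. Alternatives were the filter, floor, scaling, variance trend, RNA quality covariate, replicate block, mean over probe sets and each array left out.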

Additional observations from a re-analysis of the deposited data

How the results depend on the processing

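No member probe set passed under any of the 15 other settings tried at that level, and no member gene in 144 pairs of gene and setting (lowest adjusted p 0.0890, Asns without mutant 2, limma). In 126 of the 144 pairs the direction was kept, and Atf4 and Chac1 kept theirs in each. With the RNA degradation index (3' to 5' ratios) as a covariate the log2 fold change was -0.21 for Ddit3, -0.72 for Trib3, -1.06 for Asns, -0.29 for Sesn2, 1.06 for Phgdh and 0.16 for Shmt2. On the deposited scaling it was -0.32 for Trib3 and -0.42 for Sesn2 (-0.05 relative to the median of all probe sets), and with arrays centred on the median -0.10 and -0.20. With the mean over probe sets Sesn2 had -0.054. With 1 array left out, Trib3 ranged from -0.18 to 0.40, Sesn2 from -0.12 to 0.19, Atf5 from -0.24 to 0.16 and Psat1 from -1.09 to 0.17, and Asns, which kept its sign, from 0.05 to 2.34. The causes were not tested. Over all kept probe sets 20 passed, against 0 without the filter on dim probe sets, 52 with the lower 20% left out, 107 after log2(signal + 32), 35 on the deposited scaling, 9 without the variance trend, 5 with the covariate, and 2 (without control 2) to 576 (without mutant 2) with 1 array left out. With the replicate block 22 passed and no member. Arrays of the same number had correlated deviations of -0.04, 0.02 and 0.04, so the numbers were not taken as pairs.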
